A study of Mus musculus with 14 samples.

Results

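The 51 genes described here drive or restrain cell division. They were chosen by name, as genes of this pathway and with earlier results of these data known, out of the 49315 genes in the count table, and each of them was found by a unique gene name and passed the filter on low values in both organs. They fall into 7 modules: 7 G1 cyclins and their kinases, 5 Cdk inhibitors, 5 genes of the Rb and E2F families, 14 genes of replication licensing and of the replication fork, 3 genes of nucleotide synthesis, 2 checkpoint kinases, and 15 genes of G2 and mitosis. Poly(A) RNA was sequenced from spleens (4 of each genotype, wild type and L2-fKO) and ovaries (3 of each), and the comparison asks how the loss of ZFP36L2, a protein that destabilizes mRNAs with AU-rich elements, was accompanied by changes of these genes in each organ. L2-fKO animals, called L2-cKO in the labels, are Zfp36l2-/-;CMV-Cre mice, in which exon 2 lay between *loxP* sites and was deleted by a *Cre* transgene under the human cytomegalovirus promoter, active in the early embryo, so every organ carries the deletion. The controls are littermates whose *Zfp36l2* gene is intact on both chromosomes, and they carry the same CMV-*Cre* transgene. The spleen libraries are labelled spleen organoid and were taken as spleens, as the study describes them. They came from 2 female and 2 male wild-type animals and from 1 female and 3 male L2-fKO animals, and the ovaries are all from females. Pups were used, but the age of each animal is not in the labels. L2-fKO spleen 3 and L2-fKO ovary 1 came from the same animal.

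A cell enters division when D-type cyclins bind Cdk4 or Cdk6 and phosphorylate the Rb proteins, which releases E2F factors. E2F factors raise the transcription of cyclin E and of the replication genes, and the Mcm helicase is then loaded on origins by Orc1, Cdc6 and Cdt1 and switched on with Cdc45 and the Gins proteins. Cyclin A and cyclin B with Cdk1 carry the cell through G2 and mitosis. The inhibitors of the Cip/Kip family (*Cdkn1a*, *Cdkn1b*, *Cdkn1c*) and of the Ink4 family (*Cdkn2c*, *Cdkn2d*) hold these kinases back. In the young spleen most dividing cells are erythroid and other blood precursors, and in the young ovary they are mainly granulosa cells of growing follicles, while oocytes rest in meiotic prophase.

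The deleted gene was checked first. *Zfp36l2* (chr17:84183931-84187947, GRCm38) had 7394, 4773, 6429 and 4362 normalised counts in the 4 wild-type libraries and 278, 326, 349 and 405 in the 4 L2-fKO libraries of the spleen (log2 fold change -4.08, SE 0.21, adjusted p = 8.84e-06 by edgeR). In the ovary it had 4868, 4906 and 4745 normalised counts in the 3 wild-type libraries and 758, 1011 and 1009 in the 3 L2-fKO libraries (log2 fold change -2.40, SE 0.12, adjusted p = 0.000578 by limma). Every library went with its label. The spleen libraries held 39138010 to 45167464 reads on genes and the ovary libraries 31052510 to 44270070. The lowest value of any member in any library was 267 normalised counts. Of the marker lists, the 15 erythroid genes were all detected in every spleen, the oocyte genes summed to 128 to 214 normalised counts in wild-type spleens and 162000 to 174224 in wild-type ovaries, and the granulosa genes to 97109.5 to 106019 there.

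Because ZFP36L2 binds the heptamer UAUUUAU in 3′UTRs, the longest annotated 3′UTR of each member was searched for it (GENCODE release 21, GRCm38, written here as DNA). The heptamer stood in 19 of the 51 members (37.3%), against 29.7% of 14186 spleen-tested genes with an annotated 3′UTR and 29.3% of 15404 in the ovary. *Cdkn1a*, *Cdkn2c*, *Ccnd2* and *Ccnd3* had none. The sites of the inhibitors and of the D-type cyclin that have one, and the first of the overlapping sites of *E2f1*, are shown as examples. They are written 5′ to 3′ with the heptamer in capitals. The further sites of *E2f1* and the sites of the other members, among them *E2f2*, *Ccnb1*, *Cdc45* and *Orc1*, are not shown.
Cdkn1b (chr6:134924120-134924144, plus strand): tagtgcctgTATTTATccatcatta
Cdkn1b (chr6:134924748-134924772, plus strand): catggttgcTATTTATttctacatg
Cdkn1b (chr6:134925268-134925292, plus strand): atactaactTATTTATgttaaaaag
Cdkn1c (chr7:143458633-143458657, minus strand): taatatttgTATTTATccatgcgtg
Cdkn2d (chr9:21288467-21288491, minus strand): aaatataaaTATTTATtgctttatg
Ccnd1 (chr7:144931312-144931336, minus strand): acagaagagTATTTATgggaaaggc
E2f1 (chr2:154560035-154560059, minus strand): tggagcgttTATTTATttatcgagg
In the spleen the median log2 fold change was 0.0063 for the 19 members with the heptamer and -0.043 for those without it, and in the ovary it was -0.12 and -0.15. A match is a description of these letters and not a measured binding site.

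Across the 51 members, 1 rose in the L2-fKO spleen and none fell, while among all 16911 genes tested there 6.89% rose and 6.51% fell. The gene that rose was *Cdkn1a*. In the L2-fKO ovary no member passed the test by limma, where 1.23% of 18504 genes rose and 0.351% fell. An unadjusted p under 0.05 was found for 4 members in the spleen by edgeR and for 9 in the ovary by limma. The share of all genes with such a p was not counted, so neither count can be called high or low. On the recovered reads of the ovary edgeR also called no member and 299 of the 18504 genes, and DESeq2 called 3 members and 1116 of the 18504 genes. The median log2 fold change of the members was -0.031 in the spleen, beside -0.020 for all genes tested. In the ovary it was -0.14, beside -0.0042 for all genes, and 43 of the 51 members had a value below 0, where 50.7% of all genes tested did. In the spleen the 95% interval of 48 members lay within a log2 change of 1 in either direction, the others being *Cdkn1a*, *Cdkn2d* and *Ccnb1*. In the ovary the interval of 50 did, the other being *Cdkn1a*. Among all genes tested 11462 of 16911 did in the spleen and 13917 of 18504 in the ovary. Smaller changes are not excluded, as the median half-width of the members' intervals was 0.47 in the spleen and 0.28 in the ovary.

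**Figure D1:**
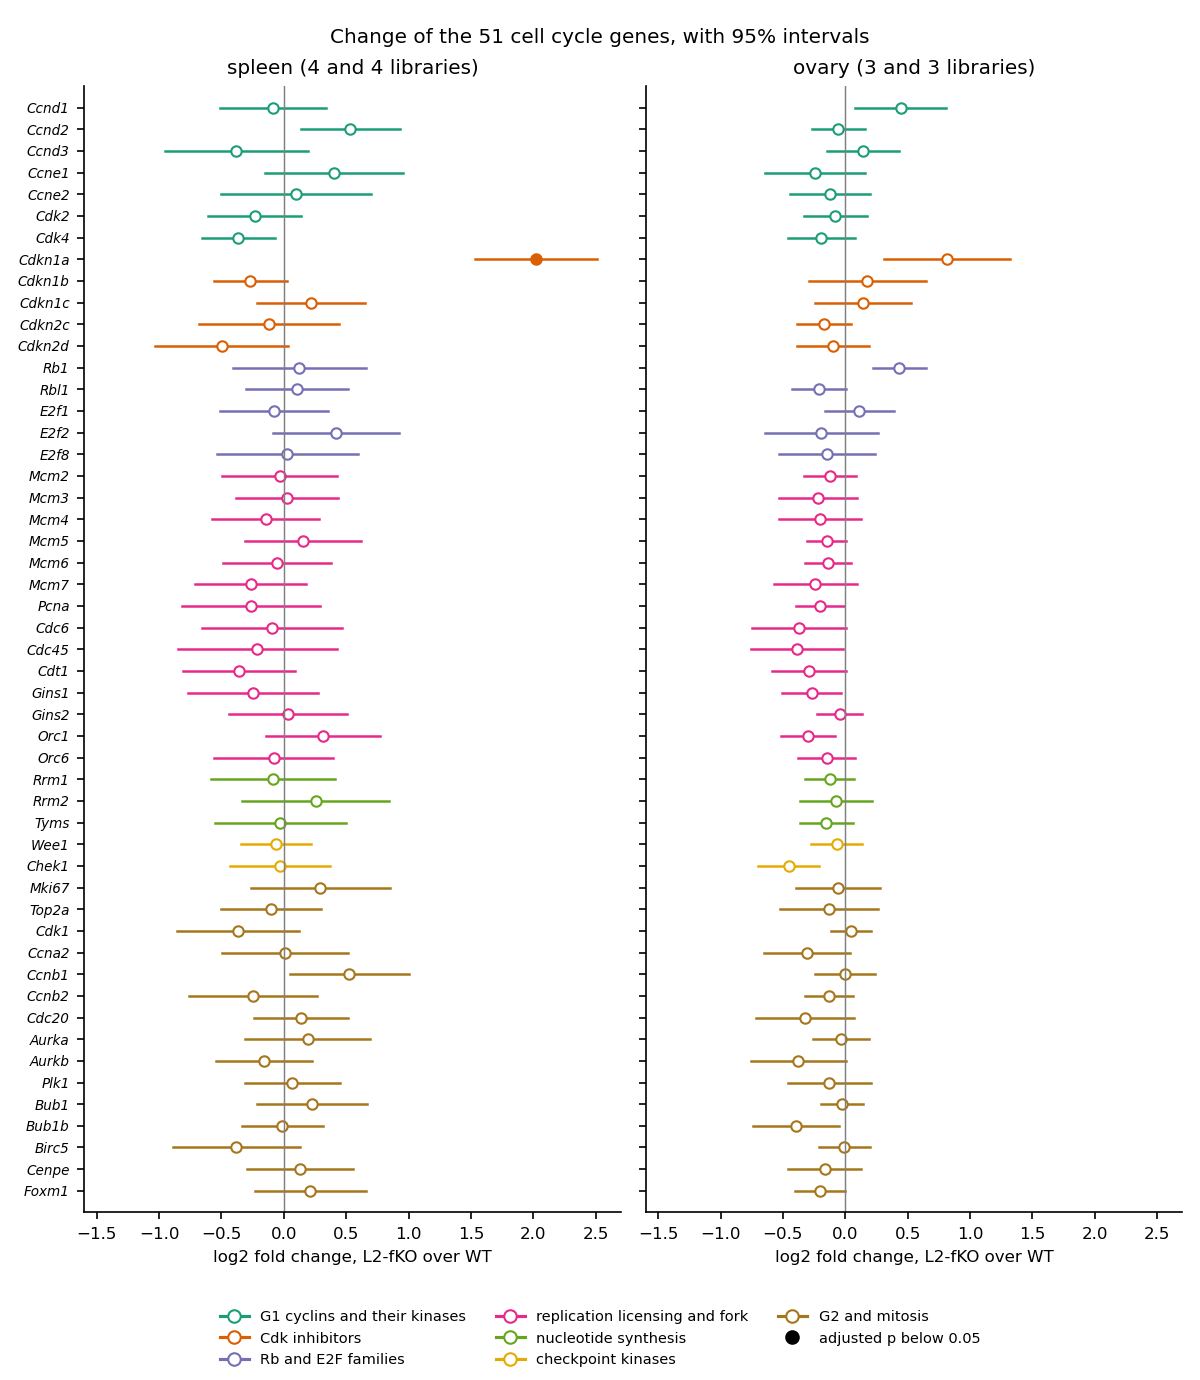
The log2 fold change of L2-fKO over wild type (horizontal axis) is drawn for each of the 51 genes (vertical axis, coloured by module) in the spleen and the ovary, with lines for the 95% interval and filled points for adjusted p below 0.05. *Cdkn1a* in the spleen, at 2.02, is the one filled point, and in the ovary it is the highest of the 51 at 0.81.

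*Cdkn1a* (chr17:29090976-29100727) encodes p21, an inhibitor of cyclin-Cdk complexes and a classical target of p53. In the spleen it had 525, 411, 328 and 365 normalised counts in the 4 wild-type libraries and 1827, 1614, 2085 and 1093 in the 4 L2-fKO libraries. Every L2-fKO spleen lay above every wild-type spleen, and the mean went from 407 ± 85.7 to 1655 ± 421 (SD, n = 4 each by library). The fold change fitted by edgeR was 4.06 (95% interval 2.90 to 5.69), which passed the test (log2 fold change 2.02, SE 0.22, adjusted p = 0.000462). It was the 1 member whose spleen groups did not overlap, and no member lay wholly below the wild type there, against 9.61% and 10.8% of all genes tested. Without any 1 library the log2 fold change stayed between 1.89 and 2.18.

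In the ovary *Cdkn1a* had 275, 267 and 341 normalised counts in the 3 wild-type libraries and 444, 718 and 427 in the 3 L2-fKO libraries. The groups again did not overlap, with L2-fKO ovary 2 highest, and the mean went from 294 ± 40.9 to 529.9 ± 163 (SD over 3 libraries each). The change did not pass by limma (log2 fold change 0.81, SE 0.22, adjusted p = 0.126), while DESeq2 on the reads recovered from the normalised values gave an adjusted p of 0.00919. The log2 fold change was 1.19 larger in the spleen than in the ovary (95% interval 0.48 to 1.91, adjusted p = 0.0483 by limma over both organs). *Cdkn1a* was the 1 member of 51 whose change differed between the organs, where 6.47% of the 15203 genes tested in both did. This call was lost without the animal that gave both organs (adjusted p = 0.145), and it was lost when any single library was left out other than wild-type spleen 1, L2-fKO spleen 4 and L2-fKO ovary 2, with adjusted p up to 0.124. It held in 4 of the 19 alternatives.

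The other inhibitors of the module gave no call. *Cdkn1b*, which encodes p27, had 7581, 7972, 7205 and 9638 normalised counts in the 4 wild-type libraries and 7298, 6389, 7486 and 5728 in the 4 L2-fKO libraries of the spleen (log2 fold change -0.27, SE 0.13, adjusted p = 0.211). Its ovary values were 6115, 7528 and 7656 normalised counts in the 3 wild-type libraries and 6316, 11095 and 7263 in the 3 L2-fKO libraries (log2 fold change 0.18, SE 0.20, adjusted p = 0.698). The groups overlapped in both organs, and in the ovary L2-fKO ovary 2 stood above the other 5 libraries and set the direction, which turned to -0.061 without it.

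*Cdkn1c* encodes p57, an imprinted member of the same family. It had 375, 452, 357 and 427 normalised counts in the 4 wild-type libraries and 439, 465, 331 and 633 in the 4 L2-fKO libraries of the spleen (log2 fold change 0.22, SE 0.19, adjusted p = 0.501), with L2-fKO spleen 4 highest. In the ovary it had 1523, 1736 and 1952 normalised counts in the 3 wild-type libraries and 1520.3, 2364 and 1923 in the 3 L2-fKO libraries (log2 fold change 0.14, SE 0.17, adjusted p = 0.708). The groups overlapped in both organs, and without L2-fKO ovary 2 the ovary value was -0.015.

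*Cdkn2c* and *Cdkn2d* encode the Ink4 proteins p18 and p19, which bind Cdk4 and Cdk6. *Cdkn2c* had 5385, 6221, 7158 and 8938 normalised counts in the 4 wild-type libraries and 6706, 6248, 8880.4 and 3635 in the 4 L2-fKO libraries of the spleen (log2 fold change -0.12, SE 0.25, adjusted p = 0.789). *Cdkn2d* had 6613, 8043, 6705 and 9647 normalised counts in the 4 wild-type libraries and 5493, 5392, 7803 and 3256 in the 4 L2-fKO libraries there (log2 fold change -0.50, SE 0.24, adjusted p = 0.199), the lowest fold change of all members in this organ. In both genes the low end of the L2-fKO group was L2-fKO spleen 4, and the groups overlapped. *Cdkn2d* passed the test among male libraries alone (log2 fold change -0.91, adjusted p = 0.0474 by edgeR), which kept L2-fKO spleen 4 and left out L2-fKO spleen 3. It did not pass by edgeR with sex as a covariate (-0.49, adjusted p = 0.238) or without L2-fKO spleen 4 (-0.31, adjusted p = 0.254). The ovary values of *Cdkn2c* were 2016, 1767 and 1762 normalised counts in the 3 wild-type libraries and 1625, 1508 and 1789 in the 3 L2-fKO libraries (log2 fold change -0.17, SE 0.094, adjusted p = 0.403). Those of *Cdkn2d* were 504, 469 and 513 normalised counts in the 3 wild-type libraries and 402, 472 and 518 in the 3 L2-fKO libraries (log2 fold change -0.10, SE 0.12, adjusted p = 0.719).

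The other genes of the pathway were counted from 3 lists of 101 genes that are not members. In the spleen 4 of the 101 rose and 2 fell, where 6.89% and 6.51% of all genes tested did, and in the ovary 1 rose and none fell, where 1.23% and 0.351% did. The lists thus held no larger share of called genes than all genes tested. In the ovary 41 of the 101 genes (40.6%) lay wholly below the wild type and 8 (7.92%) wholly above it, where 12% and 13.2% of all genes tested did. Genes that move together in a library are not independent, so this count describes the list and was not tested. In the spleen 3 (2.97%) lay wholly below and 4 (3.96%) wholly above, where 10.8% and 9.61% did. The called genes are described singly. The remaining Ink4 genes were among them. *Cdkn2a* (chr4:89274471-89294653), which encodes p16 and, from another reading frame, the p53 activator p19Arf, had 21.7, 14.1, 4.97 and 8.09 normalised counts in the 4 wild-type libraries and 112, 67.6, 299 and 76.7 in the 4 L2-fKO libraries of the spleen. Its counts do not tell the 2 transcripts apart. The L2-fKO spleens all lay above the wild type, with L2-fKO spleen 3 highest (log2 fold change 3.48, SE 0.60, adjusted p = 0.00537). In the ovary *Cdkn2a* had 144, 142 and 139 normalised counts in the 3 wild-type libraries and 94.8, 376 and 82.0 in the 3 L2-fKO libraries (log2 fold change 0.015, SE 0.53, adjusted p = 0.991), so that 1 library was above and 2 were below every wild-type ovary. Its change differed between the organs by 3.30 (adjusted p = 0.0292), a call that did not hold without the animal that gave both organs (adjusted p = 0.0839) or without any 1 of the wild-type ovaries, L2-fKO ovaries 1 and 3, L2-fKO spleen 1 and wild-type spleen 4.

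*Cdkn2b* (chr4:89306299-89311039), the neighbour of *Cdkn2a*, encodes p15. It had 18.9, 15.2, 11.9 and 12.1 normalised counts in the 4 wild-type libraries and 44.9, 35.4, 46.7 and 34.1 in the 4 L2-fKO libraries of the spleen (log2 fold change 1.46, SE 0.25, adjusted p = 0.00576), without overlap and at low counts. In the ovary it had 19.5, 43.5 and 33.0 normalised counts in the 3 wild-type libraries and 50.1, 69.9 and 47.8 in the 3 L2-fKO libraries (log2 fold change 0.84, SE 0.34, adjusted p = 0.279), where the groups did not overlap either. *Mdm2*, the ubiquitin ligase of p53 and itself a p53 target, had 2547, 2414, 2329.7 and 2619 normalised counts in the 4 wild-type libraries and 4086, 3761, 4455 and 2988 in the 4 L2-fKO libraries of the spleen, again with every L2-fKO library above the wild type (log2 fold change 0.63, SE 0.13, adjusted p = 0.0118). Among male spleens alone *Mdm2* no longer passed (adjusted p = 0.0714). *Trp53*, the gene of p53 itself, had a log2 fold change of 0.14 in the spleen (adjusted p = 0.353), and in the ovary *Mdm2* had 0.063 (adjusted p = 0.683). The activity of p53 was not tested.

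*E2f5*, a repressor E2F that works with the pocket proteins, was the pathway gene called in both organs. It had 299.9, 338, 277 and 267 normalised counts in the 4 wild-type libraries and 481, 443, 439 and 414 in the 4 L2-fKO libraries of the spleen (log2 fold change 0.59, SE 0.13, adjusted p = 0.0178). In the ovary it had 3395, 3398 and 3313 normalised counts in the 3 wild-type libraries and 5809, 7489 and 5058 in the 3 L2-fKO libraries (log2 fold change 0.84, SE 0.13, adjusted p = 0.0301). The groups did not overlap in either organ. The spleen call was lost without wild-type spleen 4, L2-fKO spleen 1 or L2-fKO spleen 2 (adjusted p 0.0604 to 0.0697) and among males alone (adjusted p = 0.0702), and the ovary call was lost without L2-fKO ovary 1 or any wild-type ovary (adjusted p up to 0.139). The 2 genes that fell in the spleen were *Cdk6*, the second partner of the D-type cyclins, and *Timeless*, which protects the replication fork. *Cdk6* had 3872, 3657, 4519 and 3395 normalised counts in the 4 wild-type libraries and 2240.2, 2867, 2512 and 2985 in the 4 L2-fKO libraries (log2 fold change -0.54, SE 0.13, adjusted p = 0.022), and without L2-fKO spleen 1 or 3 its adjusted p was 0.0746 or 0.0545, and among males alone it was 0.129. *Timeless* passed narrowly (log2 fold change -0.46, SE 0.13, adjusted p = 0.0469), and 11 of 15 alternatives took its adjusted p above 0.05, among them each left-out spleen other than wild-type spleen 1.

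**Figure D2:**
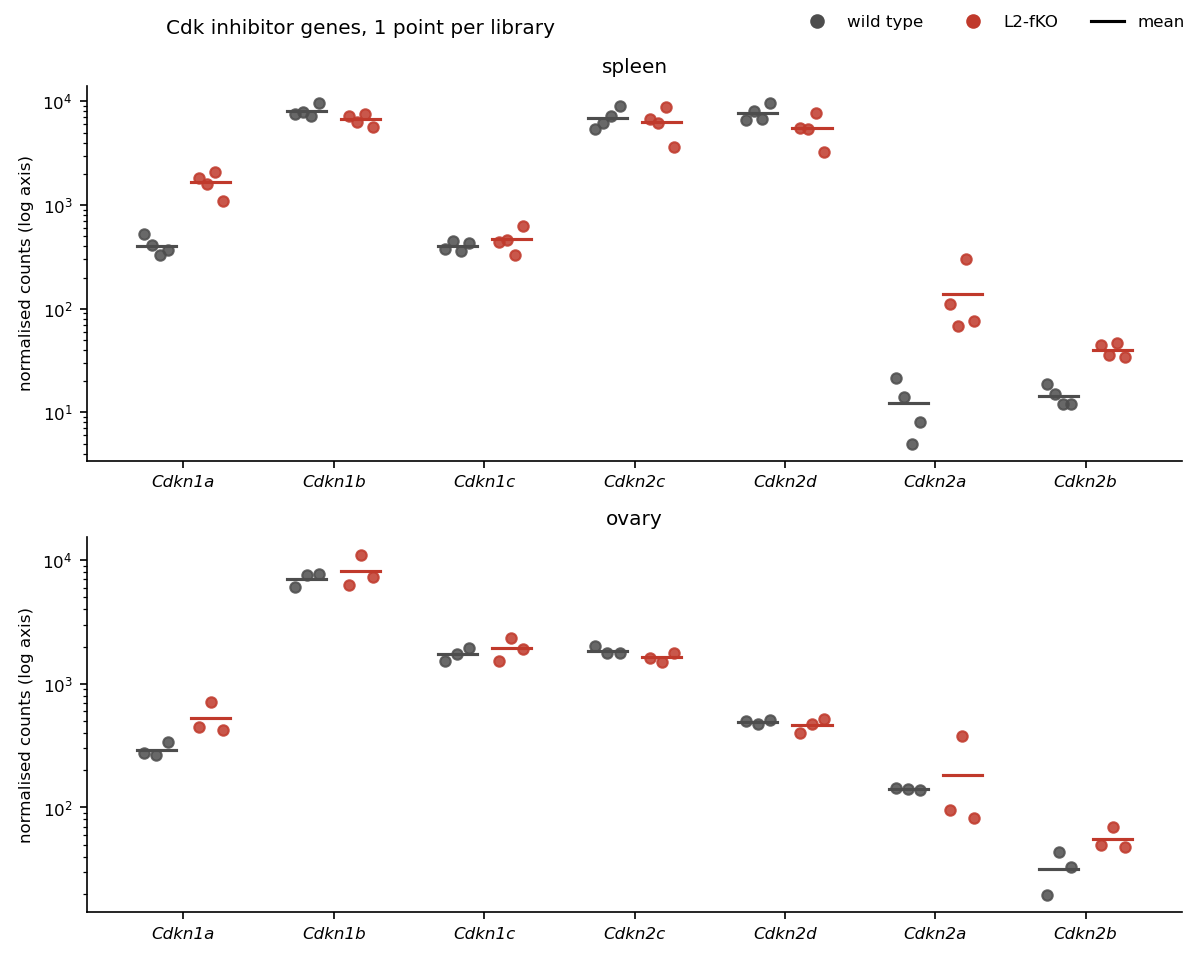
Normalised counts (vertical log axis) of the 7 Cdk inhibitor genes (horizontal axis) are shown with 1 point per library and a bar at the mean, wild type in grey and L2-fKO in red. In the spleen *Cdkn1a*, *Cdkn2a* and *Cdkn2b* are separated by genotype, whereas the 4 other inhibitors overlap, and in the ovary *Cdkn1a* and *Cdkn2b* are separated.

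The D-type cyclins stood in another order of level in each organ. In RPKM (reads divided by the exon length in kb and by the library total), wild-type spleens held 74.2 ± 12.5 of *Ccnd3* (chr17:47505051-47599691), 11.8 ± 3.29 of *Ccnd2* (chr6:127125162-127152193) and 8.26 ± 0.556 of *Ccnd1* (chr7:144929931-144939925) (mean ± SD, 4 libraries). Wild-type ovaries held 10.9 ± 1.10, 68.7 ± 4.77 and 10.4 ± 0.968 in the same order (3 libraries). *Ccnd3* thus made up 78.4% ± 5.69 of D-type cyclin reads per kb in the wild-type spleen, and *Ccnd2* 76.3% ± 0.884 in the wild-type ovary. The values were normalised apart, so only the shares within a library can be set side by side.

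In the spleen *Ccnd2* had 6495, 4704, 3677 and 4159.9 normalised counts in the 4 wild-type libraries and 7087, 7087, 5738 and 7659.6 in the 4 L2-fKO libraries (log2 fold change 0.53, SE 0.18, adjusted p = 0.0761). Of the L2-fKO spleens 3 lay above all wild-type spleens, and wild-type spleen 1 lay within their range. Without that library, among male libraries, and with DESeq2, *Ccnd2* passed the test (log2 fold change 0.72, 0.72 and 0.54, adjusted p 0.0140, 0.0154 and 0.0350). *Ccnd3* had 21294, 29784, 26894 and 35097 normalised counts in the 4 wild-type libraries and 22309, 23252, 29464 and 11868 in the 4 L2-fKO libraries (log2 fold change -0.38, SE 0.26, adjusted p = 0.363), with L2-fKO spleen 4 far below the rest. *Ccnd1* had 1585, 1885, 1570.3 and 1683 normalised counts in the 4 wild-type libraries and 1383, 1704, 1089.5 and 2162 in the 4 L2-fKO libraries (log2 fold change -0.084, SE 0.19, adjusted p = 0.807), and the groups of both genes overlapped. The share of *Ccnd2* was 12.8% ± 4.90 in wild-type and 21.6% ± 6.87 in L2-fKO spleens (two-sided exact permutation test over libraries, p = 0.0571, where 0.0286 is the smallest possible). The share of *Ccnd3* was 78.4% ± 5.69 against 68.2% ± 11.95 (exact permutation p = 0.2), and that of *Ccnd1* 8.83% ± 1.00 against 10.2% ± 5.15 (exact permutation p = 0.8). Without L2-fKO spleen 4 the change in the *Ccnd3* share went from -10.2 to -4.65 points, and that in the *Ccnd2* share from 8.84 to 5.72 points. After adjustment over the 6 shares of both organs the lowest p was 0.2.

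In the ovary *Ccnd1* had 1842, 1643 and 1939.6 normalised counts in the 3 wild-type libraries and 2382, 3096 and 1999.6 in the 3 L2-fKO libraries (log2 fold change 0.44, SE 0.16, adjusted p = 0.216), with no overlap between the groups. *Ccnd2* had 22689, 24032 and 25009 normalised counts in the 3 wild-type libraries and 21947, 25637 and 21531 in the 3 L2-fKO libraries (log2 fold change -0.057, SE 0.091, adjusted p = 0.792). *Ccnd3* had 3288, 3499 and 3846 normalised counts in the 3 wild-type libraries and 3292, 4542 and 3987 in the 3 L2-fKO libraries (log2 fold change 0.14, SE 0.12, adjusted p = 0.603), and both of these genes overlapped. The share of *Ccnd1* was 11.5% ± 0.891 in wild-type and 15.3% ± 1.76 in L2-fKO ovaries, and that of *Ccnd2* 76.3% ± 0.884 and 71.6% ± 1.48. Both had the exact permutation p of 0.1, the smallest that 3 against 3 libraries can give. The share of *Ccnd3* was 12.1% ± 0.353 and 13.1% ± 1.34 (exact permutation p = 0.4).

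**Figure D3:**
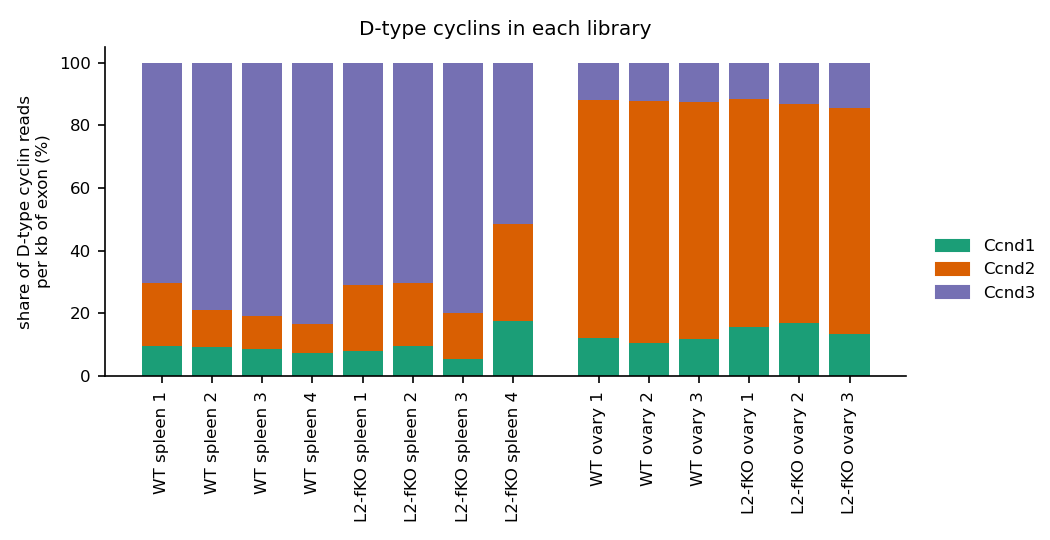
Bars give the share of each D-type cyclin in the summed D-type cyclin reads per kb of exon (vertical axis, percent) in each of the 14 libraries (horizontal axis). *Ccnd3* is the main D-type cyclin in every spleen, least so in L2-fKO spleen 4 with 51.5%, and *Ccnd2* in every ovary.

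Of the remaining G1 genes, the cyclin E genes, which drive entry into S phase with Cdk2, had log2 fold changes of 0.40 (*Ccne1*) and 0.098 (*Ccne2*) in the spleen and -0.24 and -0.12 in the ovary. *Cdk4* had 10278, 14537, 11887 and 13412 normalised counts in the 4 wild-type libraries and 10284, 10214, 9822 and 8587 in the 4 L2-fKO libraries of the spleen, and wild-type spleen 1 matched the upper L2-fKO libraries (log2 fold change -0.37, SE 0.13, adjusted p = 0.0964). In the ovary *Cdk4* had -0.19, and *Cdk2* had -0.23 in the spleen and -0.081 in the ovary. Over the 7 genes of the module the values ran from -0.38 (*Ccnd3*) to 0.53 (*Ccnd2*) in the spleen and from -0.24 (*Ccne1*) to 0.44 (*Ccnd1*) in the ovary.

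In the Rb and E2F families, *Rb1*, the retinoblastoma protein that holds E2F factors inactive, had 1528, 1485 and 1438 normalised counts in the 3 wild-type libraries and 2026, 2209 and 1796 in the 3 L2-fKO libraries of the ovary. All 3 L2-fKO ovaries lay above the wild type, and the gene was the closest to the limit of all members there (log2 fold change 0.43, SE 0.091, adjusted p = 0.0715). DESeq2 on the recovered reads gave it an adjusted p of 0.00381. In the spleen *Rb1* overlapped (log2 fold change 0.12, adjusted p = 0.767). *E2f2*, an activator E2F that is abundant in erythroid precursors, was the highest of the module in the spleen with 34609.6, 36195, 43379.5 and 46439 normalised counts in the 4 wild-type libraries and 55099, 53391, 73384 and 32595 in the 4 L2-fKO libraries (log2 fold change 0.42, SE 0.23, adjusted p = 0.257), and the lowest was *E2f1*. *E2f1*, the founding activator E2F, had 3215, 4083, 4579.9 and 4722 normalised counts in the 4 wild-type libraries and 4123, 4076, 4914 and 2595 in the 4 L2-fKO libraries (log2 fold change -0.080, SE 0.19, adjusted p = 0.822), and its groups overlapped. Its ovary values were 2515, 2540.2 and 2781 normalised counts in the 3 wild-type libraries and 2384, 3298 and 2862 in the 3 L2-fKO libraries (log2 fold change 0.11, SE 0.12, adjusted p = 0.675), which overlapped as well. Without L2-fKO spleen 4 *E2f2* passed (log2 fold change 0.60, adjusted p = 0.0319). In the ovary the lowest was *Rbl1*, which encodes the pocket protein p107, with -0.21, and *E2f8*, a repressor E2F, had 0.029 in the spleen and -0.15 in the ovary.

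None of the 14 replication genes passed in either organ. In the spleen their log2 fold changes ran from -0.36 (*Cdt1*, a loader of the Mcm helicase) to 0.31 (*Orc1*, the large subunit of the origin recognition complex), with a median of -0.088, 10 below and 4 above 0. The 6 Mcm genes lay between -0.26 (*Mcm7*) and 0.16 (*Mcm5*). *Pcna*, the sliding clamp of the replication polymerases and the member with the highest RPKM in the wild-type spleen (342 ± 62.2), had 25921, 36709, 35292 and 44448 normalised counts in the 4 wild-type libraries and 31438, 30255, 39453 and 17369 in the 4 L2-fKO libraries. Its L2-fKO range enclosed most wild-type values, and the 95% interval of its log2 fold change was -0.82 to 0.29.

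In the ovary all 14 replication genes had a log2 fold change below 0, from -0.39 (*Cdc45*, a part of the active helicase) to -0.047 (*Gins2*), with a median of -0.21. In 5 of them, *Mcm5*, *Pcna*, *Cdc45*, *Gins1* and *Orc1*, every L2-fKO ovary lay below every wild-type ovary. *Cdc45* had 1621, 1951 and 1559 normalised counts in the 3 wild-type libraries and 1365, 1041 and 1549 in the 3 L2-fKO libraries (log2 fold change -0.39, SE 0.16, adjusted p = 0.273). *Orc1* had 881, 983 and 890.0 normalised counts in the 3 wild-type libraries and 735, 801 and 705 in the 3 L2-fKO libraries (log2 fold change -0.30, SE 0.093, adjusted p = 0.175). The differences were small beside those of *Cdkn1a*, and the lowest adjusted p among the 14 was that of *Orc1*. Across all members 11 lay wholly below the wild type in the ovary and 3 wholly above it (*Ccnd1*, *Cdkn1a* and *Rb1*), where 12% and 13.2% of all genes tested did.

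The 3 nucleotide synthesis genes gave no call. *Rrm1* and *Rrm2* encode the subunits of ribonucleotide reductase, and *Tyms* encodes thymidylate synthase. Their log2 fold changes were -0.087, 0.25 and -0.028 in the spleen and -0.13, -0.077 and -0.15 in the ovary. None passed the test, the lowest adjusted p being 0.448.

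Of the checkpoint kinases, *Chek1*, which halts the cycle when replication stalls, had 2549, 2386 and 2576 normalised counts in the 3 wild-type libraries and 2034, 1567 and 1912 in the 3 L2-fKO libraries of the ovary. Each L2-fKO ovary lay below the wild type (log2 fold change -0.45, SE 0.11, adjusted p = 0.0905), the lowest log2 fold change of any member in the ovary, and DESeq2 on the recovered reads gave an adjusted p of 0.0115. In the spleen *Chek1* had -0.031 with a 95% interval of -0.44 to 0.37, and the difference between organs did not pass (adjusted p = 0.354). *Wee1*, which keeps Cdk1 inactive before mitosis, had -0.062 in the spleen and -0.068 in the ovary.

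The 15 genes of G2 and mitosis gave no call either. In the spleen they ran from -0.38 (*Birc5*, survivin of the chromosomal passenger complex) to 0.53 (*Ccnb1*, cyclin B1), 9 of the 15 above 0. *Ccnb1* had 7668, 8608, 11258 and 10293 normalised counts in the 4 wild-type libraries and 14402, 13969, 17540.3 and 8549.8 in the 4 L2-fKO libraries (log2 fold change 0.53, SE 0.21, adjusted p = 0.133), 3 L2-fKO spleens being above all wild-type spleens and the remaining one among them. Without L2-fKO spleen 4 it passed (log2 fold change 0.70, adjusted p = 0.0149). *Ccnb2*, the other mitotic B-type cyclin, had a log2 fold change of -0.25, and their shared kinase *Cdk1* -0.37. *Mki67*, the gene of the Ki-67 proliferation antigen, had 56200.1, 56266, 91789 and 72894 normalised counts in the 4 wild-type libraries and 76456, 84592, 121485 and 56971 in the 4 L2-fKO libraries (log2 fold change 0.29, SE 0.25, adjusted p = 0.473), and *Top2a*, which untangles chromosomes, had -0.10. In the ovary the module ran from -0.39 (*Bub1b*, of the spindle checkpoint) to 0.046 (*Cdk1*), with 14 of 15 below 0, where 50.7% of all genes tested were. *Ccna2*, *Cdc20*, *Aurkb* and *Bub1b* (26.7% of the module) lay wholly below the wild type, where 12% of all genes tested did.

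Much of the spread came from single libraries in which most members moved together. The level of each member was set against its wild-type mean on the log2 scale, and the median over the 51 members was -0.32, -0.015, 0.12 and 0.22 in the 4 wild-type spleens and 0.045, 0.056, 0.32 and -0.55 in the 4 L2-fKO spleens. L2-fKO spleen 4 was thus low, being the lowest of the 8 spleens for 40 members, and L2-fKO spleen 3 was the highest for 28. *Cdkn1a* in L2-fKO spleen 4 was still above every wild-type spleen. Without L2-fKO spleen 4 the members below 0 went from 28 to 15 and their median log2 fold change from -0.031 to 0.092. Without L2-fKO spleen 3 it was 36 members and -0.15, and without wild-type spleen 1, the lowest of its group, 34 and -0.11.

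In the ovary the medians were -0.0088, -0.031 and 0.042 in the wild type and -0.13, -0.30 and -0.0055 in L2-fKO. L2-fKO ovary 2 was the lowest of the 6 ovaries for 35 members, and it was the highest for 10, the 3 D-type cyclins, *Cdkn1a*, *Cdkn1b*, *Cdkn1c*, *Rb1*, *E2f1*, *Gins2* and *Birc5*. Without it 36 of 51 members were below 0 and the median log2 fold change was -0.071. The replication genes had a median of -0.41 in this library, -0.15 in L2-fKO ovary 1 and -0.053 in L2-fKO ovary 3.

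**Figure D4:**
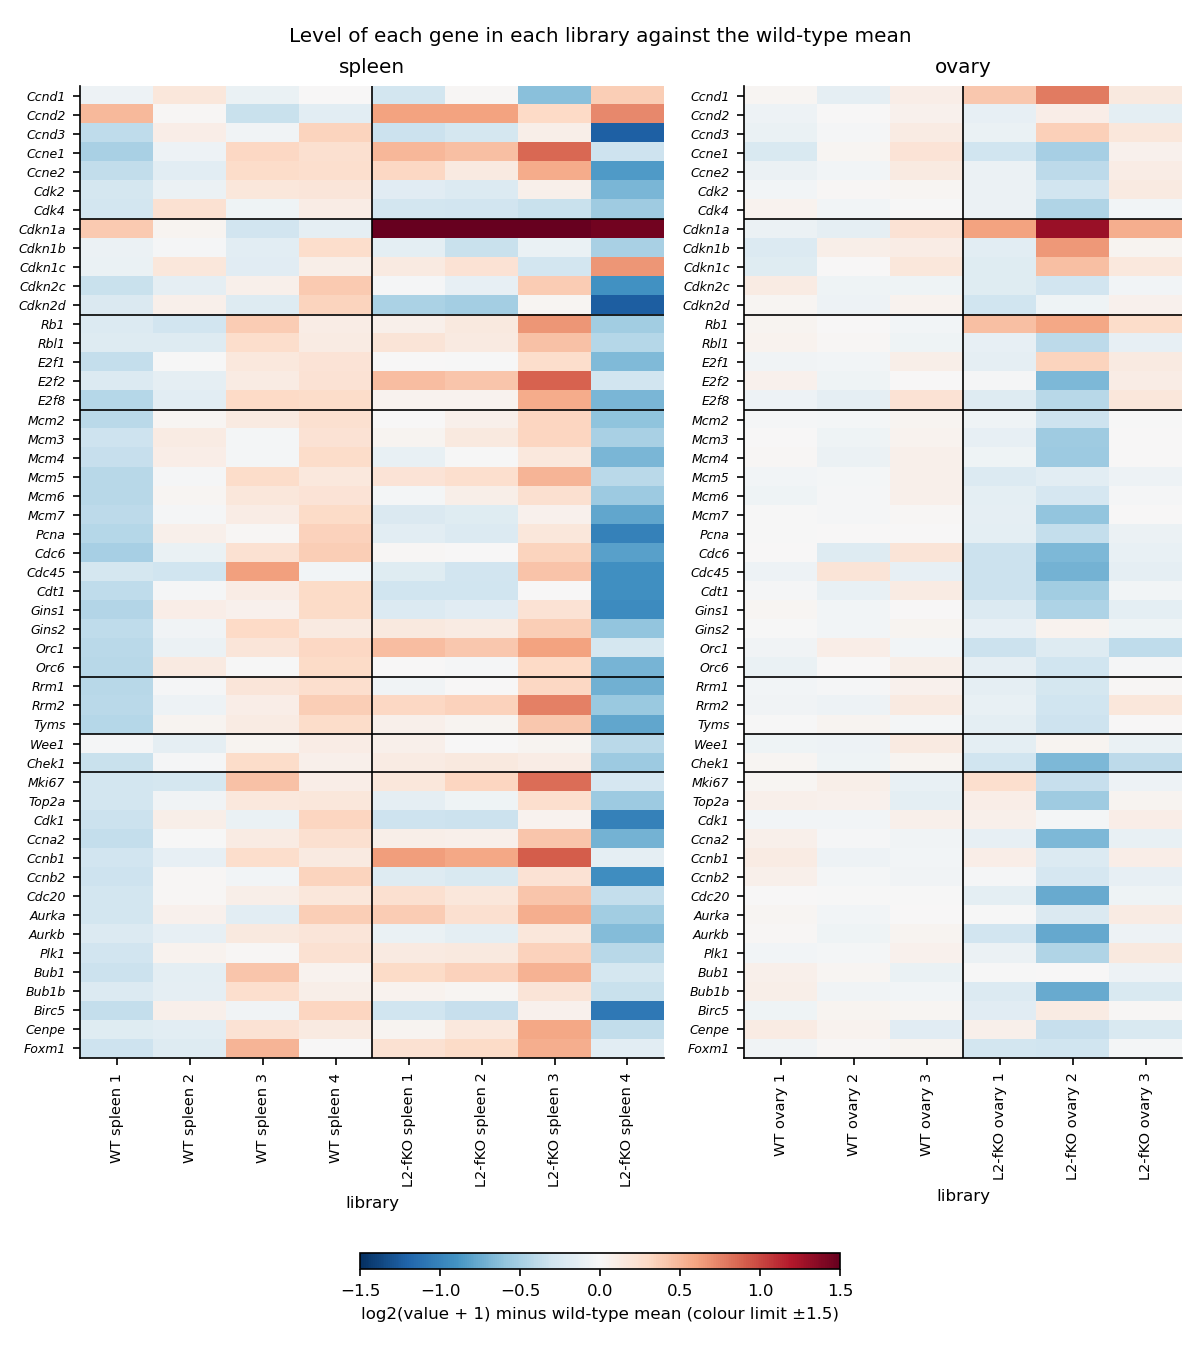
Colour shows log2(normalised count + 1) minus the wild-type mean for each of the 51 genes (rows, lines between modules) in each library (columns, a line between genotypes). The row of *Cdkn1a* is red in all L2-fKO spleens, most other rows are blue in L2-fKO spleen 4 and red in L2-fKO spleen 3, and L2-fKO ovary 2 is blue for most rows.

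The cell type markers moved with genotype and with these libraries. Counted in bulk tissue, fewer cells of a type and less RNA per cell cannot be told apart. In the spleen 10 of 10 megakaryocyte markers fell, their summed level being 30662 to 59233 in wild-type and 1519.7 to 2013 in L2-fKO libraries, 9 of 10 neutrophil markers fell (171123 to 275191 against 11314 to 65124), and 2 of 10 macrophage and 3 of 8 fibroblast markers rose. None of the 15 erythroid, 10 B cell and 10 T cell markers passed the test. Erythroid markers, mostly globin reads, summed to 1948870 in L2-fKO spleen 4, the lowest of the 8, and to 4097420 in L2-fKO spleen 3, the highest, with 2265220 in wild-type spleen 3. Of the list's other genes, *Epor*, the erythropoietin receptor, had 5153, 6565, 7384 and 8479 normalised counts in the 4 wild-type libraries and 5753, 5281, 6533 and 3548 in the 4 L2-fKO libraries, with L2-fKO spleen 4 lowest. *Ermap*, an erythroid membrane protein, had 23126, 26373, 39484 and 34817 normalised counts in the 4 wild-type libraries and 31825, 30997, 37264 and 18684 in the 4 L2-fKO libraries, with wild-type spleen 3 highest and L2-fKO spleen 4 lowest. Macrophage markers summed to 140712 in L2-fKO spleen 4 and to at most 96310.5 in the other 7. Of the pancreatic acinar transcripts 4 fell, and the list summed to 1641 to 23462 in wild-type and 1255 to 2178 in L2-fKO spleens. In the ovary granulosa markers summed to 53125 in L2-fKO ovary 2 and 94479 and 88296 in the other 2, against 97109.5 to 106019 in the wild type. All 10 granulosa log2 fold changes were below 0, but none was called and no single gene lay wholly below the wild type. The theca list was lowest in L2-fKO ovary 2 as well (34784). Macrophage markers summed to 6361 to 8295 in L2-fKO and 4534 to 4909.9 in wild-type ovaries, with 10 of 10 log2 fold changes above 0, 8 genes wholly above the wild type and 1 called (*Hmox1*). Erythroid markers summed to 14912 to 24644 in L2-fKO and 9441 to 14608 in wild-type ovaries, again without overlap and with none called. By gene this list was split. Of its 14 genes tested there, 7 had a log2 fold change above 0 and 7 below, and 3 (21.4%) lay wholly above the wild type and 2 (14.3%) wholly below. Among all genes tested in the ovary 13.2% lay wholly above the wild type and 12% wholly below. In the T cell and fibroblast lists 1 marker each rose in the ovary. The part of these markers in the members' values was not tested.

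**Figure D5:**
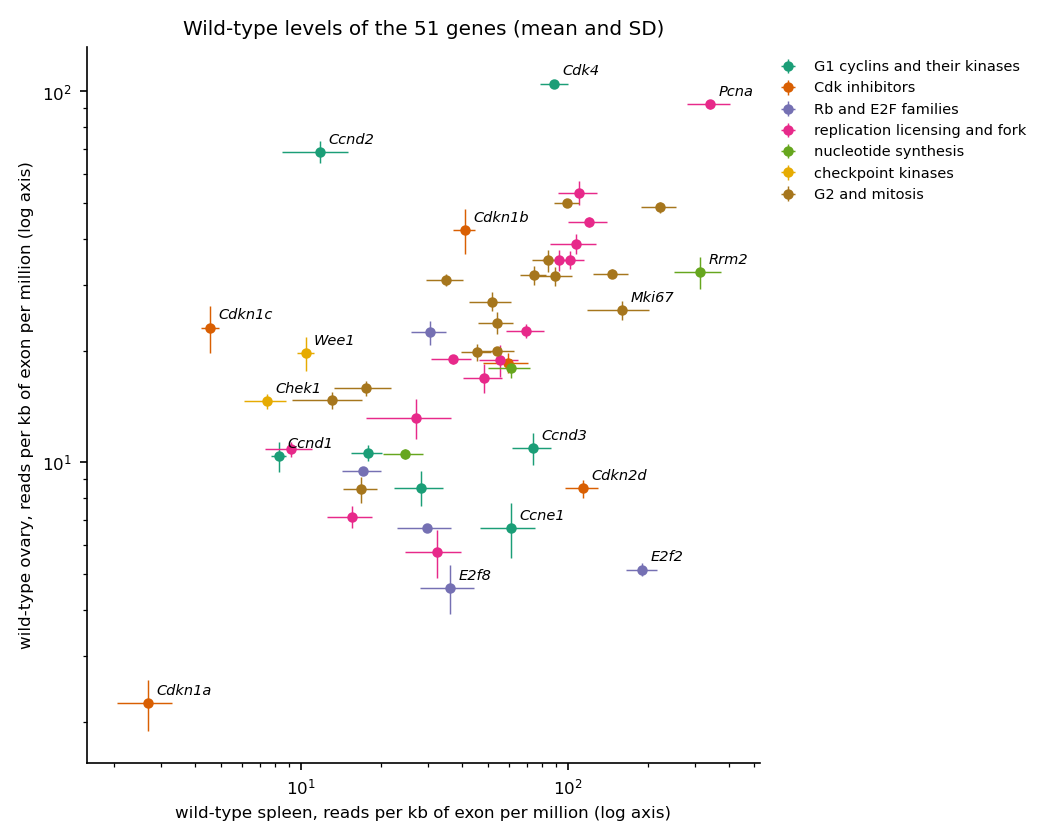
Each point is 1 of the 51 genes, with its mean level in wild-type spleens (horizontal log axis) and wild-type ovaries (vertical log axis) in RPKM and bars for the SD over 4 and 3 libraries. *Cdkn1a* is the lowest in both organs, and *Pcna* and *Cdk4* are the highest in the spleen and the ovary.

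The wild-type levels stood in another order in each organ. In the spleen the highest members per kb were *Pcna* (342 ± 62.2 RPKM), *Rrm2* (312 ± 61.4) and *Ccnb2* (221 ± 33.3), of which the first 2 lay within 1 SD of each other, followed by *E2f2* (190.3 ± 24.6). In the ovary they were *Cdk4* (105 ± 2.79), *Pcna* (92.5 ± 2.49) and *Ccnd2* (68.7 ± 4.77). *E2f2* ranked 4 in the spleen and 49 in the ovary (5.14 ± 0.200), and *Cdkn2d* ranked 8 in the spleen (114 ± 16.1) and 43 in the ovary (8.504 ± 0.471). *Cdkn1c* went the other way, from rank 50 (4.56 ± 0.354) to rank 21 (23.1 ± 3.32). *Cdkn1a* was last of the 51 in both, with 2.66 ± 0.613 in wild-type spleens and 2.24 ± 0.354 in wild-type ovaries, and in L2-fKO spleens it reached 10.6 ± 1.88. These levels share the depth and make-up of their libraries and were not tested between organs.

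The promoters of the members were also searched for motifs of cell cycle transcription. RefSeq promoters (GRCm38.p6, 250 bases before to 50 after the start) were given for 39 members and searched on both strands for the E2F motifs TTTCCCGC and TTTGGCGC, for the cell cycle genes homology region TTTGAA, which binds the complexes that act on G2 and mitosis genes, and for the CCAAT box. An E2F motif stood in 6 of 11 replication promoters and 0 of 12 G2 and mitosis promoters, beside 2.69% of 13442 promoters of tested genes. The homology region stood in 8 of 12 G2 and mitosis promoters and 2 of 11 replication promoters, beside 12.7%, and the CCAAT box in 11 of 12 and 9 of 11, beside 38.1%. None of the 4 inhibitor promoters held an E2F motif or the homology region. Whether the motifs bear on the levels of the genes was not tested. L2-fKO spleen 4 was below the wild-type mean for 47 of the 51 members, among them *Cdkn2d* (-1.23 on the log2 scale), which had neither motif. Examples from genes low in that library are shown 5′ to 3′ with the E2F motif (*Mcm5*, *Mcm7*) or the homology region (*Cdk1*, *Ccnb2*) in capitals. The E2F motifs lie on the opposite strand and so are shown as their reverse complement.
Mcm5 (chr8:75109349-75109378, plus strand): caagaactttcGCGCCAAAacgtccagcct
Mcm7 (chr5:138172030-138172059, minus strand): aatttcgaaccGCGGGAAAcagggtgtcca
Cdk1 (chr10:69352910-69352939, minus strand): taccgcggcgagTTTGAAactgctggcact
Ccnb2 (chr9:70421533-70421562, minus strand): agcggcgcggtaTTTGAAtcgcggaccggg
Such a match describes the letters of these windows and no measured binding, and the absence of a match says only that these letters are not in the window.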

How the data were processed

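According to the study's methods and the submitters' processing notes, the authors used Trimmomatic 0.36 for trimming, STAR 2.5.2b for alignment to GRCm38, and featureCounts (Subread 1.5.2) to count unique exon reads by strand. For the spleen, raw counts were deposited for every gene, beside values divided by size factors. The ovary values are signal deposited by the authors, reads divided by 1 size factor per library, for 18603 genes, and whole reads were recovered from all of them within 0.001. Authors' columns of fold changes and p-values were not used.

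Spleen counts (at least 10 in at least 4 libraries) were tested with edgeR 4.0.16 (quasi-likelihood, TMM), ovary values (at least 10 in at least 3 libraries) with limma 3.58.1 on log2(normalized count + 1), and the difference between organs with limma over both tables of normalized values. Fold changes on that scale understate low genes. P-values were adjusted over all genes by Benjamini-Hochberg and called below 0.05. R 4.3.3, DESeq2 1.42.0, Python 3.11.15 and scipy 1.17.1 were used, and the fits were tested on simulated data. Alternatives were other normalizations, tools, filters and pseudocounts, sex, a replicate block and each library left out. Spleen values in the text are counts scaled by TMM. Exon lengths are unions of GENCODE release 21. The 11 marker lists hold 110 genes, and 2 further names (*Ahsp*, *Amy2a5*) were not matched. Of 2 wild-type spleens labelled 3, the male one was taken as 4. Genes in the text are all members by module, with values in each library for those called, the D-type cyclins and the inhibitors, and the called pathway genes with the largest changes. *Timeless*, *Rb1*, *Chek1* and other members given by library beyond this were chosen after their values were seen. The members and lists were chosen with earlier results of these data known.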

Additional observations from a re-analysis of the deposited data

Results flagged for a closer look

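In 2 of 102 groups of 4 spleens, 1 library stood apart from the other 3 by more than the 95% critical value of Dixon's ratio, and chance alone gives about 1 group in 20. Both were L2-fKO spleen 4, with a *Wee1* value of 1156 normalised counts (gap over range 0.85) and a *Chek1* value of 1010.4 (gap over range 0.941). The log2 fold change differed between the spleen and the ovary for *Cdkn1a* by 1.19 and for *Cdkn2a* by 3.30, both by limma over both organs.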

How the results depend on the processing

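In the spleen *Cdkn1a* stayed called under each of 15 alternatives (log2 fold change 1.89 to 2.18, adjusted p at most 0.00485), and *Cdkn2b* likewise (1.37 to 1.61), as was *Cdkn2a* under the 14 that kept it (2.79 to 3.92). The 1 spleen member called became 2 with DESeq2 and 3 among males, and 1 to 3 with 1 library left out. The 0 ovary members became 3 with DESeq2 (*Cdkn1a*, *Rb1* and *Chek1*), and 0 with any 1 library left out. The 1 member that differed between organs became 0 with edgeR and 0 without the shared animal, and 0 to 3 with 1 library left out. Among females the only L2-fKO spleen was that of the shared animal, so calls there were not read. The difference was then 1.55 for *Cdkn1a* and 0.83 for *Aurka*. With 1 library left out, log2 fold changes crossed 0 for *Cdkn1b* (-0.061 to 0.35) and *Cdkn1c* (-0.015 to 0.30) in the ovary and for *Ccnd1* (-0.27 to 0.062) and *Cdkn2c* (-0.32 to 0.075) in the spleen, as did the change in *Ccnd1* share in the spleen (-1.06 to 2.93 points). The causes were not tested. Calls over all genes went from 292 to 1116 with DESeq2 in the ovary, and with 1 library left out from 292 to between 34 and 423, in the spleen from 2267 to between 1136 and 3112, and for the difference from 983 to between 484 and 1916.

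The study describes the spleens as age-matched pairs and the ovaries as age-matched, but the labels do not say which animals were matched. Same-numbered wild-type and L2-fKO libraries did not deviate together throughout (correlations -0.135, 0.094, 0.179 and -0.293 in the spleen, 0.382, 0.211 and 0.072 in the ovary, all 3 above 0), so the numbers were not taken as pairs. With a replicate block the members called were 1 in the spleen, 2 in the ovary (*Rb1* and *Chek1*) and 0 for the difference, and the calls over all genes went from 2267 to 1247 in the spleen and from 292 to 539 in the ovary. The block also took the spleen calls of *E2f5* (adjusted p = 0.0646), *Cdk6* (0.073) and *Timeless* (0.115) and the organ differences of *Cdkn1a* (0.0782) and *Cdkn2a* (0.0656) above 0.05. In the spleen, wild-type spleen 1 correlated 0.437 with L2-fKO spleen 4 and -0.135 with its own number. In the ovary every library correlated best with its own number except wild-type ovary 3, which had 0.184 with L2-fKO ovary 2 and 0.072 with its own. Whether the ovaries were paired by number therefore cannot be told.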

Other observations

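A few genes of the pathway lists were picked after their values had been seen. *Rrm2b*, a p53-responsive subunit of ribonucleotide reductase whose longest 3′UTR holds 4 UAUUUAU heptamers, had 1763, 1638 and 1528 normalised counts in the 3 wild-type libraries and 2213, 2708 and 2044 in the 3 L2-fKO libraries of the ovary, without overlap between the groups (log2 fold change 0.49, SE 0.12, adjusted p = 0.0925 by limma). In the spleen its values were 953, 453, 536 and 470.0 normalised counts in the 4 wild-type libraries and 755, 646, 633 and 686 in the 4 L2-fKO libraries (log2 fold change 0.17, SE 0.23, adjusted p = 0.657 by edgeR). *Mycn*, a growth-promoting transcription factor, had the lowest log2 fold change of the 101 pathway genes in the spleen, -0.63 (adjusted p = 0.14), and every L2-fKO ovary lay below the wild type for it (log2 fold change -0.25, adjusted p = 0.303). Of the 36 other replication genes 34 had a log2 fold change below 0 in the ovary, with a median of -0.14, and in the spleen 22 did, with a median of -0.045. Of the 40 other G2 and mitosis genes the numbers were 31 (-0.13) and 22 (-0.019). Among all genes tested 50.7% were below 0 in the ovary and 52.2% in the spleen. In the ovary 18 of the 36 and 16 of the 40 lay wholly below the wild type, where 12% of all genes tested did. These counts were not tested either, as such genes can move together in a library.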
